A study of Homo sapiens with 6 samples.

Results

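The DNA replication machinery is described here through 47 human genes in 6 groups: 9 of origin recognition and licensing, 12 of the replicative helicase, 11 of the polymerases and the single-strand binding protein, 8 of the clamp and clamp loader with lagging-strand processing, 4 of nucleotide supply and 3 of chromatin assembly. The genes were listed by name, and each was read from probe sets that the array's annotation assigns to that gene alone. All 47 of 47 were measured, through 89 such probe sets, among 19775 genes named on the array. Where a gene had several probe sets, the one with the highest mean over the 6 arrays stood for it. The cells were BL2, an established line from a Burkitt lymphoma, a B cell cancer. They were grown in complete RPMI and electroporated either with scrb siRNA, the control, or with LEF1 siRNA, a pool of 4 siRNAs. Each group had 3 biological replicates, 1 of each group in every batch of the labels' 3. All arrays come from 1 cell line, the time from electroporation to RNA isolation is not given in the sources used here, and the pool does not separate its 4 siRNAs.

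Before a cell copies its DNA, the origin recognition complex with CDC6 and CDT1 loads the ring-shaped MCM2 to MCM7 helicase onto origins. CDC45 and the GINS complex then turn that ring into the active helicase, after which polymerase alpha with primase starts each strand, and polymerases delta and epsilon extend it with the PCNA clamp that replication factor C loads. Many of these genes are transcribed as cells enter S phase, under E2F transcription factors, and Burkitt lymphoma is known as a rapidly dividing tumour. LEF1 is a DNA-binding factor of the Wnt pathway.

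The promoters of 5 genes that fell with LEF1 siRNA, in the test described below, are shown because each holds a word of the E2F type. The words searched were TTTCCCGC, TTTGGCGC, TTTCGCGC and TTTGCCGC, on both strands, and overlapping matches were counted separately. The sequences are RefSeq's for GRCh38.p14 and run 5′ to 3′ on the gene's strand, from 250 bases before to 20 bases after the annotated start. They lie at chr17:40287629-40287898 (plus strand) for CDC6, chr7:100101378-100101647 (minus) for MCM7, chr20:25407423-25407692 (plus) for GINS1, chr11:65261712-65261981 (plus) for POLA2 and chr13:33817899-33818168 (plus) for RFC3. Capitals mark the E2F-type words. MCM7 has 2 further promoters in the table, with no such word.
CDC6: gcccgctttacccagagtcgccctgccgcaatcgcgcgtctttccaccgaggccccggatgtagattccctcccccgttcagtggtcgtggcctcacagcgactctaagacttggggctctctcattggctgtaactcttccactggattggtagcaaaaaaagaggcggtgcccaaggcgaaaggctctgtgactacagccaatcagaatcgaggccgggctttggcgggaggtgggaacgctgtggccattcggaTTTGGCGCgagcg
MCM7: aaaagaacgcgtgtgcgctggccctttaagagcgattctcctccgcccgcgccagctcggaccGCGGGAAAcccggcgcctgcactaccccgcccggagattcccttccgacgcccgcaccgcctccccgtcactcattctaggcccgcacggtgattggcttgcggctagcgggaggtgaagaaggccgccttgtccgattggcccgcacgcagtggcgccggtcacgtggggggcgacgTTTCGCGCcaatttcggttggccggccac
GINS1: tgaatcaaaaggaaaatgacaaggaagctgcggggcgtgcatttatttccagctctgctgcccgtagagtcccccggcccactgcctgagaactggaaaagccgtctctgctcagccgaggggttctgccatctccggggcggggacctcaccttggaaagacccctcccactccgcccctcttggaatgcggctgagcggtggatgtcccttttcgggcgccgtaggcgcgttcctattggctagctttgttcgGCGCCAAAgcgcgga
POLA2: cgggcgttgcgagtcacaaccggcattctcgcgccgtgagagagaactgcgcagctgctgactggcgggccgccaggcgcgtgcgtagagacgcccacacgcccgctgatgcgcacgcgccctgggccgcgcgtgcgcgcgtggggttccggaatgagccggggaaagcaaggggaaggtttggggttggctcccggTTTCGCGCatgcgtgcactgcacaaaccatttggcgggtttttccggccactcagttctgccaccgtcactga
RFC3: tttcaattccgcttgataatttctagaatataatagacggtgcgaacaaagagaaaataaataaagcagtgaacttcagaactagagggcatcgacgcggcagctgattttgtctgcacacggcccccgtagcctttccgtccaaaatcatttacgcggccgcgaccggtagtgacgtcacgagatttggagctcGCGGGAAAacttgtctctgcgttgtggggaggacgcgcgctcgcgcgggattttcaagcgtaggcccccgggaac

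Of the 47 genes, 41 had an entry in the promoter table, with 52 promoters of 300 bases, from 250 before to 50 after the start. An E2F-type word was present for 19 of the 41 genes (46.3%) and in 36.5% of their promoters, against 3.31% of all 35116 promoters in the table. The 5-base CCAAT box was present in 55.8% of the genes' promoters and in 34.6% of all promoters. TTTGAA, the cell cycle homology word of many mitotic genes, was in the promoter of 1 replication gene, RRM1 (1.92% of promoters, 15.2% of all). The TCF/LEF-type words were CTTTGAA and CTTTGAT, the former of which contains TTTGAA, with CTTTGTA and CTTTGTT. They were in 7.69% of the genes' promoters and 13.8% of all. Those 4 promoters belong to MCM7, MCM10, GINS1 and RFC3. For MCM7 that promoter is another one than the promoter shown. The TCF/LEF words were added after the array values had been seen. Among the 19 genes with an E2F-type word, 9 fell with LEF1 siRNA in the test described next, with a median log2 difference of -0.21 over the 19. Among the 22 with no such word in these windows, 6 fell, with a median of -0.16. The CCAAT box divided the genes in a like way, with 11 of 24 lower where it was present (median -0.22) and 4 of 17 where it was not (median -0.19). All 4 genes with a TCF/LEF-type word fell (median -0.30), against 11 of the other 37 (median -0.19). None of these splits was tested. The share that fell among all genes with each word was not computed. A word is a match of letters only, and no binding was measured here.

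LEF1 itself was lowered in each batch. At its brightest probe set the log2 level was 11.09, 10.58 and 11.45 with scrb siRNA in batches 1, 2 and 3 and 8.21, 8.09 and 8.67 with LEF1 siRNA. The groups did not overlap, and 15.2% of the control level remained (limma adjusted p = 0.0213 without block). The other LEF1 probe sets differed by -1.84 and -0.30. Means over 10 of 11 listed B cell and Burkitt markers lay between 11.69 and 11.96 on every array. T and NK cell markers (7 genes) lay between 6.69 and 6.81, myeloid markers (4 of 6) between 6.62 and 6.74, and epithelial and stromal markers (7) between 6.998 and 7.18, against a median of 6.91 over all probe sets. MME, a germinal centre B cell marker, fell by 0.43 and PECAM1 rose by 0.32 (limma adjusted p = 0.000605 and 0.00584 with batch as block). The part of either in the results was not tested.

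Differences are LEF1 siRNA minus scrb siRNA on the log2 scale. They were fitted with limma over all 54613 probe sets that are not array controls, once without block and once with batch as block, which takes the difference within batches. Adjusted p is Benjamini-Hochberg over those probe sets, two-sided, and a gene passed under 0.05. "Fell" and "rose" mean passing with batch as block.

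With batch as block, 17 of the 47 replication genes fell and none rose. The share that fell, 36.2%, compares with 1.7% of the 19775 genes, and 6.73% of those genes rose. The 47 were chosen with earlier results of these data known, so this comparison was not tested. All 47 lay above the median level of the array, and among the 12630 genes above that level 2.63% fell and 10.4% rose. Among the 6308 genes within the range of mean levels of the 47, 4.58% fell and 14.7% rose. The 17 that fell differed by -0.21 to -0.40, a 1.16-fold to 1.32-fold lower level. None of the 47 reached 1.5-fold. Counts by group use the brightest probe set of each gene. By group, 7 of 12 helicase genes, 3 of 11 polymerase genes, 3 of 8 clamp and clamp loader genes, 2 of 9 origin genes, 2 of 4 nucleotide supply genes and 0 of 3 chromatin assembly genes fell. The fit without block called none of the 47, and the smallest limma adjusted p was 0.431. In that fit 0.0183% of all probe sets passed, and 8 of the 47 genes were lower and 0 higher at an unadjusted p under 0.05, against 2.29% of all genes lower. Batch as a random block also called 0.

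The sign of the difference was shared more widely than the calls. Of the 47, 45 differences lay below 0, against 40.8% of all genes, and the median was -0.20 against 0.02 for all genes. In 3 of 3 batches 36 genes (76.6%) were lower, against 13.7% of all genes and 18.8% of the genes in their range of levels. In 5 genes (10.6%), MCM3, MCM4, MCM6, MCM7 and RRM2, every LEF1 siRNA array lay below every scrb siRNA array, against 4.03% of all genes. The mean over the 47 genes was -0.18, -0.25 and -0.14 in batches 1, 2 and 3, or -0.19 ± 0.06 (SD, n = 3 batches). The genes share arrays, so they are not replicates of the treatment.

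The batches differed from each other by more than the groups did. With each gene set to its own mean over the 6 arrays, the scrb siRNA arrays averaged 0.09, -0.06 and 0.26 over the 47 genes and the LEF1 siRNA arrays -0.09, -0.32 and 0.12. Batch 3 was highest and batch 2 lowest in both groups, and these batches lay farther apart than the groups' means of 0.10 and -0.10. The groups overlap across batches while each batch shows the lower value with LEF1 siRNA. The median standard error over the 47 genes was 0.13 without block and 0.06 with it. In bulk RNA, fewer cells in S phase and less of these RNAs per cell cannot be told apart.

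**Figure D1:**
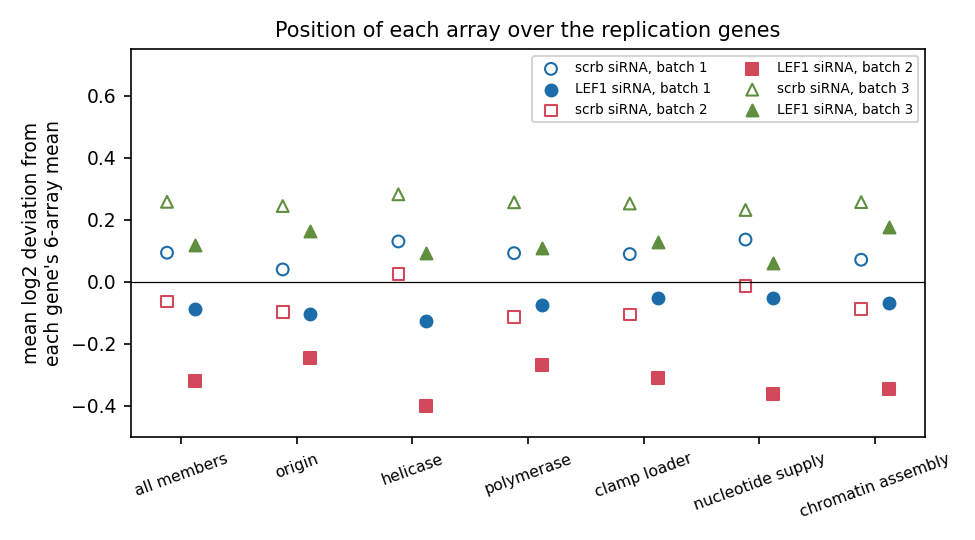
Mean log2 deviation of each array from each gene's mean over 6 arrays (y axis), over all 47 genes and by group of genes (x axis), with open symbols for scrb siRNA and filled ones for LEF1 siRNA and 1 colour and shape per batch. Over all genes the scrb siRNA arrays lie at 0.09, -0.06 and 0.26 and the LEF1 siRNA arrays at -0.09, -0.32 and 0.12, so the filled symbol lies lower in each batch although the groups overlap.

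The lowest difference lay in batch 2 for 30 of the 47 genes, in batch 1 for 10 and in batch 3 for 7. Without batch 2, 3 genes (6.38%) passed, CDC45, MCM10 and PRIM1, and the mean over the 47 was -0.16. Calls were fewer over the whole array in that fit too, where 0.622% of all genes fell, against 1.7% with all batches. Without batch 1, 17 genes (36.2%) fell, 15 of them among the 17 above, against 2.31% of all genes. Without batch 3, 21 genes (44.7%) fell, 13 of them among the 17, against 1.87% of all genes. With the trend and robust options of limma's eBayes, 14 of the 47 fell. The share of all genes that fell in that fit was not computed.

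Origin licensing is done by the origin recognition complex, made of ORC1 to ORC6, with the loaders CDC6 and CDT1, and is held back by geminin, the product of GMNN. The 9 genes averaged -0.14, -0.15 and -0.08 in the 3 batches, or -0.12 ± 0.04 (SD, n = 3). CDC6 and GMNN fell, and no subunit of the origin recognition complex did. The 6 subunits averaged -0.10 ± 0.03 (SD, n = 3), from -0.16 for ORC1 to -0.04 for ORC2.

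CDC6 had log2 levels of 10.10, 9.81 and 10.12 with scrb siRNA and 9.81, 9.30 and 9.99 with LEF1 siRNA. It was lower in each batch, although the LEF1 siRNA array of batch 3 lay above the scrb siRNA array of batch 2. It fell by 0.31 ± 0.07 (SE, limma adjusted p = 0.0164). A second CDC6 probe set fell by 0.34. GMNN, whose product binds CDT1 and prevents a second round of licensing, was at 11.86, 11.71 and 12.17 with scrb siRNA and 11.69, 11.48 and 11.93 with LEF1 siRNA. Its groups overlapped too, but its 3 batch differences were close to each other, at -0.16, -0.23 and -0.25 (limma adjusted p = 0.0392). It did not pass with eBayes trend and robust (limma adjusted p = 0.109). Of the genes that did not pass, ORC1, an ATP-binding subunit of the complex, differed by -0.16 and ORC3 by -0.13 (limma adjusted p = 0.163 and 0.229). CDT1 was 1 of 2 genes with a difference above 0, at 0.03, and is taken up below with its other probe set.

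The helicase genes include MCM2 to MCM7, which form the ring, CDC45 and GINS1 to GINS4, which activate it, and MCM10, which acts in that activation. All 12 were lower in 3 of 3 batches, and 7 fell. Their mean was -0.26, -0.43 and -0.19 in batches 1, 2 and 3, or -0.29 ± 0.12 (SD, n = 3), the lowest mean of the 6 groups in each batch. The difference between groups of genes was not tested. The 6 ring subunits and the 4 GINS subunits each averaged -0.27. In batch 2 the ring subunits averaged -0.46, against -0.16 in batch 1 and -0.19 in batch 3. The GINS subunits averaged -0.36, -0.31 and -0.14 in batches 1, 2 and 3. In batch 1 the GINS mean holds GINS4 at -0.89, while GINS1, GINS2 and GINS3 were at -0.26, -0.17 and -0.12 there.

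CDC45 had the largest difference of the 47 genes and the smallest p with batch as block. Its log2 levels were 10.28, 10.09 and 10.54 with scrb siRNA and 9.91, 9.59 and 10.20 with LEF1 siRNA. It was lower by 0.38, 0.50 and 0.33 in the 3 batches, and 75.6% of the control level remained (difference -0.40 ± 0.06 SE, limma adjusted p = 0.00117). Across batches its groups overlap, since the LEF1 siRNA array of batch 3 lies above the scrb siRNA array of batch 2.

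MCM10 was at 10.35, 10.21 and 10.62 with scrb siRNA and 10.03, 9.60 and 10.36 with LEF1 siRNA. It was lower in each batch, most of all in batch 2, where it was lower by 0.61 on the log2 scale (difference -0.39 ± 0.07 SE, limma adjusted p = 0.00379). The other MCM10 probe sets differed less, by -0.16 and -0.15, and neither passed (limma adjusted p = 0.15 and 0.252). GINS1, a subunit of the 4-part GINS complex, was at 10.87, 10.74 and 11.13 with scrb siRNA and 10.61, 10.31 and 10.90 with LEF1 siRNA (difference -0.31 ± 0.06 SE, limma adjusted p = 0.0075). Both genes keep the batch order, with batch 3 highest and batch 2 lowest in each group.

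The MCM7 arrays separated by group. MCM7 was at 12.68, 12.62 and 12.85 with scrb siRNA and 12.49, 12.15 and 12.60 with LEF1 siRNA (difference -0.30 ± 0.06 SE, limma adjusted p = 0.0121). Its second probe set fell by 0.31. MCM3 and MCM4 also separated and fell, MCM3 by 0.32 and MCM4 by 0.37, with MCM4 at -0.71 in batch 2 and -0.24 and -0.16 in batches 1 and 3. MCM6 separated as well, at 12.72, 12.73 and 12.86 against 12.62, 12.28 and 12.71, yet did not pass with a difference of -0.23 ± 0.07 (SE, limma adjusted p = 0.0691). Its second probe set, much dimmer at a mean of 7.63 with scrb siRNA, went the other way. It differed by 0.08, 0.15 and 0.22 in the 3 batches without passing (limma adjusted p = 0.186). MCM2 and MCM5, the remaining ring subunits, differed by -0.21 and -0.17 and did not pass.

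Among the GINS genes, GINS2 fell by 0.25 and GINS3 differed by -0.13 without passing. Other GINS2 probe sets, dim at means of 7.15 and 7.37 with scrb siRNA, differed by -0.0015 and 0.01 without passing. GINS4 shows how 1 array can set a mean. Its log2 level was 8.30 on the LEF1 siRNA array of batch 1, against 9.18 with scrb siRNA there, a difference of -0.89. The other batches gave -0.24 and -0.05, and the gene did not pass with a mean of -0.39 ± 0.11 (SE, limma adjusted p = 0.0514).

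**Figure D2:**
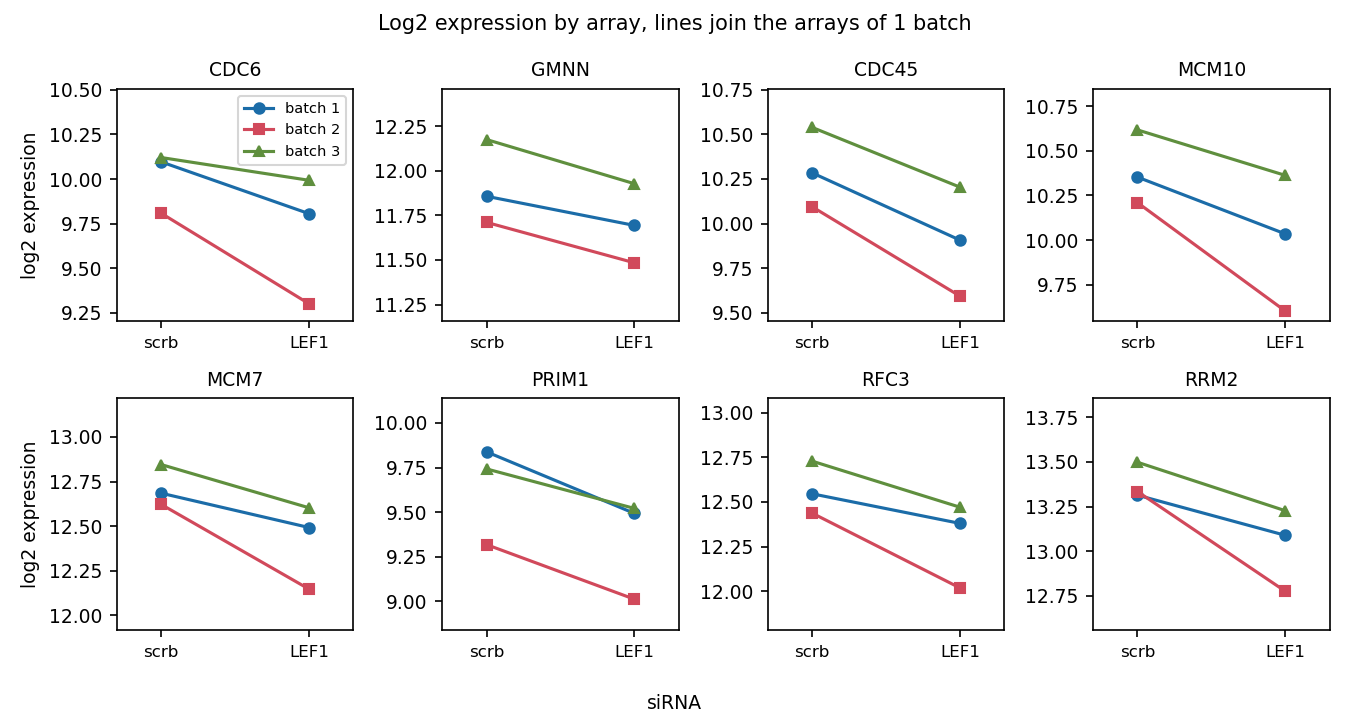
Log2 expression (y axis) of 8 replication genes that fell with batch as block, with scrb siRNA on the left and LEF1 siRNA on the right of each panel and a line joining the 2 arrays of a batch. Every line slopes down, by 0.13 (CDC6, batch 3) to 0.61 (MCM10, batch 2), and batch 2 is lowest in each panel with LEF1 siRNA.

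The polymerase group holds polymerase alpha (POLA1, POLA2) with primase (PRIM1, PRIM2), subunits of the delta and epsilon polymerases, and RPA1 to RPA3, which coat single-stranded DNA. PRIM1, RPA3 and POLA2 fell, and the group averaged -0.17, -0.16 and -0.15 in the 3 batches, or -0.16 ± 0.01 (SD, n = 3). Its batch means lay closer together than those of the other groups of genes.

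PRIM1, the catalytic subunit of primase, was at 9.84, 9.32 and 9.74 with scrb siRNA and 9.49, 9.01 and 9.52 with LEF1 siRNA. It was lower by 0.34, 0.31 and 0.22 in the 3 batches (difference -0.29 ± 0.06 SE, limma adjusted p = 0.0075) and is 1 of the 3 genes that pass without batch 2. RPA3, the small subunit of the single-strand binding protein, fell by 0.26, most in batch 3 at -0.38 (limma adjusted p = 0.0191). POLA2, the B subunit of polymerase alpha, fell by 0.22, also most in batch 3 at -0.29 (limma adjusted p = 0.0386). It did not pass with eBayes trend and robust (limma adjusted p = 0.0745). Other POLA2 probe sets, dim at means of 7.46 and 7.04 with scrb siRNA, differed by -0.03 and -0.06 without passing. Polymerase catalytic subunits did not pass: POLD1 differed by -0.20, POLE by -0.20 and POLA1 by -0.19 (limma adjusted p = 0.0535, 0.0517 and 0.0699), each lower in 3 of 3 batches. For POLA1 the 3 batch differences lay between -0.17 and -0.19. The accessory subunits POLE2 and POLD3 differed by -0.19 and -0.15 and RPA2 by -0.07, without passing.

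Some genes of the group stood near 0 at their brightest probe set. RPA1, the large subunit of the protein whose small subunit fell, differed by -0.0041 ± 0.06 (SE), with batch differences of -0.01, -0.01 and 0.01. Its other probe sets disagreed with each other, at -0.14 (-0.36 in batch 2) and 0.16, and neither passed. The one at 0.16 was dim, with a mean of 6.79 with scrb siRNA, below the median level of the array. PRIM2, the partner of PRIM1 in primase, differed by 0.04, with 0.17 in batch 2. These 2, CDT1, PCNA and RFC1 are named because their differences were the nearest to 0 or above it, after their values were seen. The difference between PRIM1 and PRIM2 or between RPA3 and RPA1 was not tested.

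PCNA is the ring that holds polymerases on DNA, and replication factor C, made of RFC1 to RFC5, loads it. FEN1 trims and LIG1 joins the fragments of the lagging strand. RFC3, RFC4 and LIG1 fell, and the 8 genes averaged -0.14, -0.21 and -0.12 in the 3 batches, or -0.16 ± 0.04 (SD, n = 3).

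RFC3 was at 12.55, 12.44 and 12.73 with scrb siRNA and 12.38, 12.02 and 12.47 with LEF1 siRNA (difference -0.28 ± 0.06 SE, limma adjusted p = 0.015). Only the LEF1 siRNA array of batch 3 exceeded a scrb siRNA array, that of batch 2. RFC4 fell by 0.25 and LIG1 by 0.26 (limma adjusted p = 0.0175 and 0.0272). LIG1 was at 9.54, 9.55 and 9.66 with scrb siRNA and 9.30, 9.13 and 9.54 with LEF1 siRNA, with overlap only at 9.54. FEN1 differed by -0.19 and RFC2 by -0.16 (limma adjusted p = 0.0707 and 0.139), each lower in 3 of 3 batches.

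PCNA, among the most used markers of dividing cells, showed no difference of the size seen in the helicase. Its log2 level was 13.14, 13.00 and 13.20 with scrb siRNA and 13.20, 12.98 and 13.13 with LEF1 siRNA. The difference was -0.01 ± 0.06 (SE, limma adjusted p = 0.955), with 1 batch above 0 and the others below. RFC1, the largest subunit of replication factor C, also differed by -0.01, against -0.20 ± 0.06 (SD, n = 3 batches) for the mean of the 4 small subunits.

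**Figure D3:**
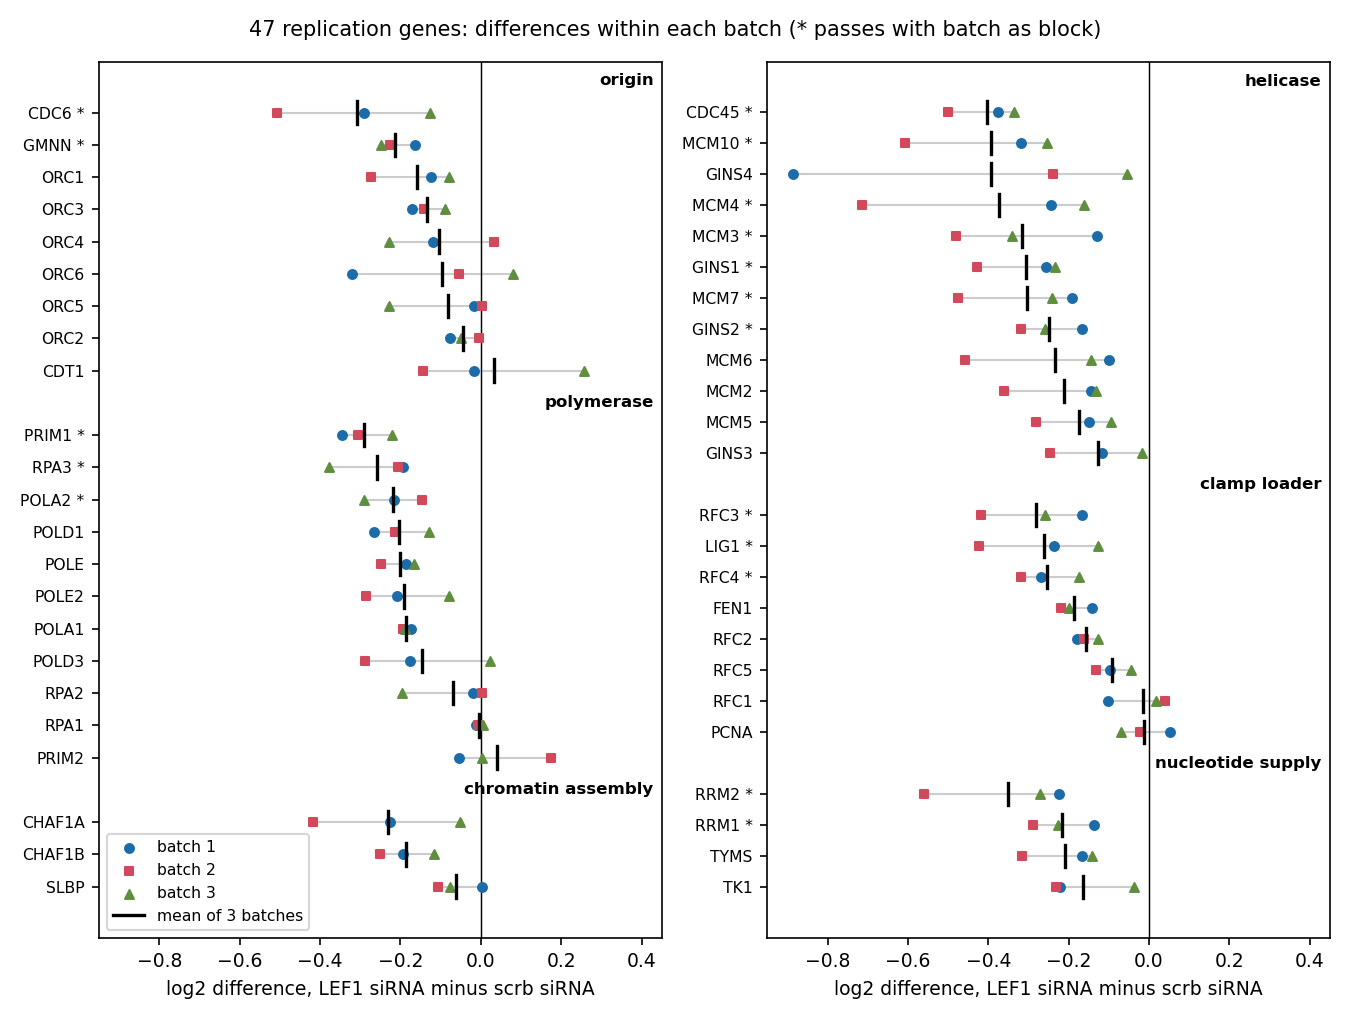
LEF1 siRNA minus scrb siRNA on the log2 scale (x axis) for each of the 47 genes by group (rows), with 1 symbol per batch, a black bar at the mean of 3 batches and an asterisk where the gene passed with batch as block. Of the 47 bars 45 lie below 0, batch 2 (squares) is the lowest symbol for 30 genes, and GINS4 in batch 1 lies farthest out at -0.89.

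Nucleotide supply is represented by the large and small subunits of ribonucleotide reductase (RRM1, RRM2), which makes the DNA building blocks, and by thymidylate synthase (TYMS) and thymidine kinase (TK1), which provide thymidine nucleotides. All 4 were lower in 3 of 3 batches, and their mean was -0.19, -0.35 and -0.17 in the 3 batches, or -0.24 ± 0.10 (SD, n = 3). RRM2 was at 13.31, 13.33 and 13.50 with scrb siRNA and 13.09, 12.77 and 13.23 with LEF1 siRNA, with no overlap of the groups. It fell by 0.35 ± 0.07 (SE, limma adjusted p = 0.00674). RRM1 fell by 0.22 (limma adjusted p = 0.0402) but did not pass after quantile normalization, after cyclic loess or with eBayes trend and robust (limma adjusted p = 0.122, 0.0702 and 0.118). TYMS differed by -0.21 and TK1 by -0.16, without passing (limma adjusted p = 0.0545 and 0.153).

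Chromatin assembly behind the fork uses the CAF-1 histone chaperone, of which CHAF1A and CHAF1B are subunits, and histone RNAs that SLBP binds. The 3 genes averaged -0.14, -0.26 and -0.08, or -0.16 ± 0.09 (SD, n = 3), and none passed at its brightest probe set. CHAF1A differed by -0.23 and CHAF1B by -0.19 (limma adjusted p = 0.0643 and 0.0787), both lower in 3 of 3 batches. At a pair of other probe sets CHAF1A fell by 0.36 and 0.38. SLBP differed by -0.06.

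**Figure D4:**
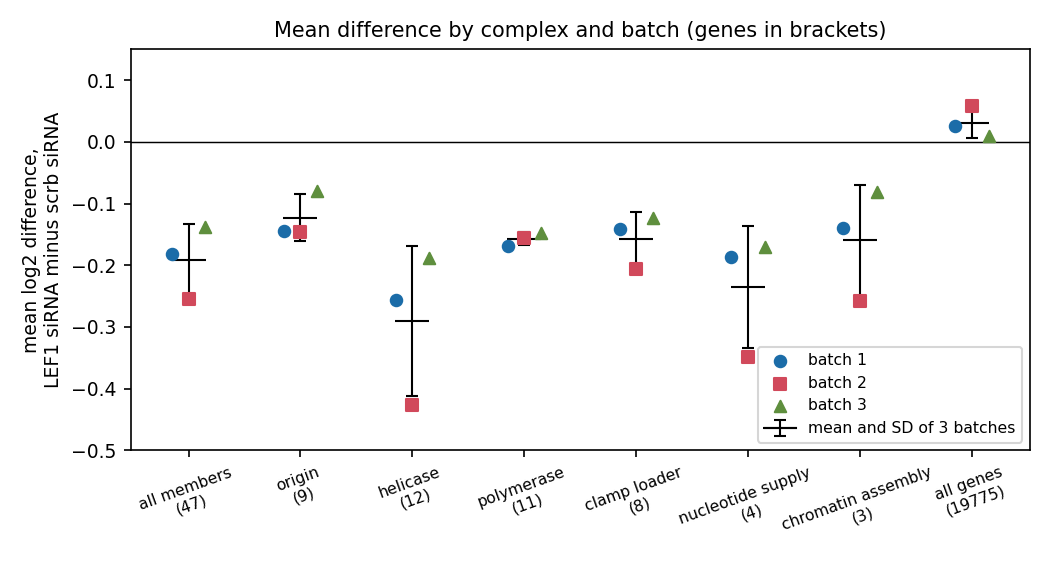
Mean log2 difference of LEF1 siRNA minus scrb siRNA (y axis) in each batch (symbols), with the mean and SD of the 3 batches (bars), for all 47 genes, the 6 groups and all 19775 genes (x axis). Each symbol of the 6 groups lies below 0, the helicase is lowest at -0.26, -0.43 and -0.19, and all genes lie slightly above 0 at 0.03, 0.06 and 0.01.

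Probe sets of a gene did not always give the same value. Over the 89 probe sets, 29 fell and none rose with batch as block, against 1.51% lower and 4.58% higher among all 54613, and 83 of the 89 lay above the median level. Of 26 genes with several probe sets, 15 had differences of 1 sign and 3, CDC6, MCM7 and RRM1, fell at each. At 1 probe set or more, 22 of the 47 genes fell. That rule gives genes with several probe sets more chances to pass, and the share of all genes under it was not computed. In 5 genes another probe set fell while the brightest one did not pass.

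CDT1 is the plainest case. Its brightest probe set differed by 0.03, with -0.02, -0.14 and 0.26 in the 3 batches, while the other fell by 0.35 (limma adjusted p = 0.00704), with -0.17, -0.52 and -0.35. For TYMS the brightest probe set differed by -0.21 and a second fell by 0.51 (limma adjusted p = 0.000969). CHAF1A differed by -0.23 at the brightest and fell by 0.36 and 0.38 at a pair of others. FEN1 differed by -0.19 and fell by 0.35 at its second probe set. RFC5 differed by -0.09, fell by 0.27 at a second probe set and was at 0.18 at its remaining one, which did not pass. MCM4 fell at 3 of its 5 probe sets, by 0.25 to 0.40. RRM2 fell by 0.35 at its brightest and differed by -0.16 at the other. Which transcripts each probe set reads was not examined.

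**Figure D5:**
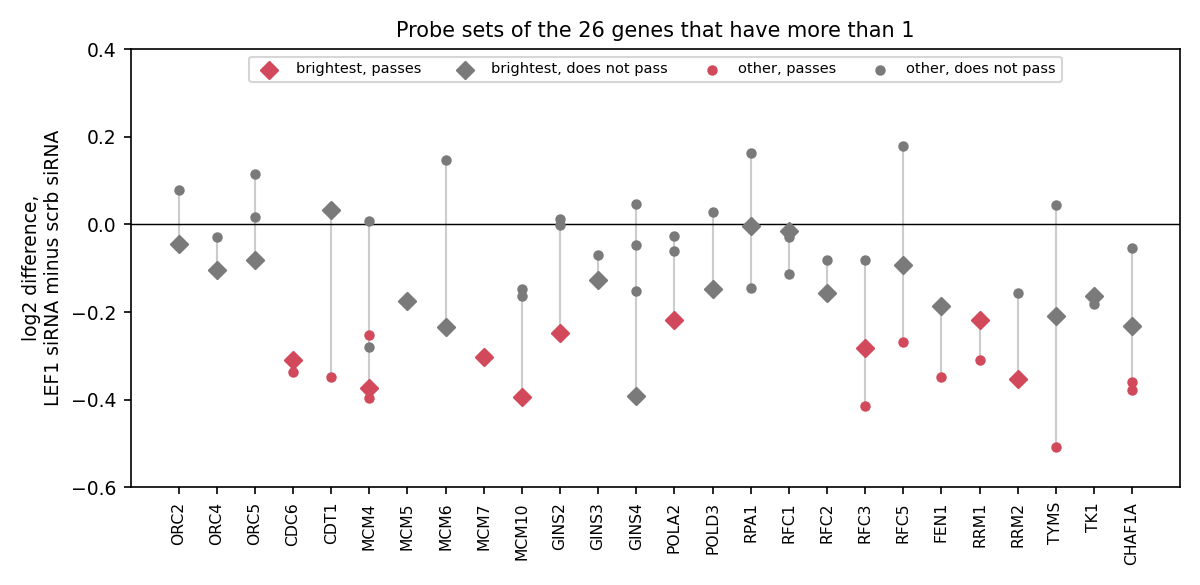
Log2 difference of LEF1 siRNA minus scrb siRNA (y axis) at each probe set of the 26 replication genes that have more than 1 (x axis), with diamonds for the brightest probe set, circles for the others, and red where the probe set passed with batch as block. All red symbols lie below 0, and CDT1, TYMS, FEN1, RFC5 and CHAF1A have a grey diamond with a red circle under it.

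Other genes of the pathway were counted from 4 lists. Of 65 listed, 61 were measured. Of these 9 fell (14.8%) and 2 rose, with a median difference of -0.08, against 1.7% lower and 6.73% higher of all genes. Among 17 initiation and fork factors, TIPIN, of the fork protection complex, fell by 0.24 and DONSON, which acts in helicase activation, by 0.25. The kinase gene CDC7 differed by -0.21 without passing, and DBF4, its activating partner, by 0.06. Among 17 other polymerase and lagging-strand genes, ATAD5, of the complex that unloads PCNA, fell by 0.24 and DSCC1, of an alternative clamp loader, by 0.25, while POLD4, the smallest subunit of polymerase delta, rose by 0.31. Among 14 other nucleotide supply genes, CTPS1 (CTP synthase) fell by 0.25 and DTYMK (thymidylate kinase) by 0.21, while CTPS2, the second CTP synthase gene, rose by 0.22. Among 13 chromatin genes, SSRP1, a subunit of the FACT histone chaperone, fell by 0.47, ASF1B, a histone chaperone, by 0.32 and DNMT1, the maintenance DNA methyltransferase, by 0.21. Without batch 2, 1 of the 61 fell, against 0.622% of all genes.

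Mitosis genes, taken for comparison, were also lower. Of 20, 9 fell (45%) and none rose, with a median difference of -0.17. CDC20, an activator of the anaphase-promoting complex, fell by 0.36, the mitotic kinase PLK1 by 0.33 and the spindle checkpoint kinase BUB1 by 0.30 (limma adjusted p = 0.00185, 0.00384 and 0.00582). The share of the 47 replication genes that fell, 36.2%, was therefore not higher than that of these mitosis genes, and the difference between the lists was not tested.

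The scaling of the arrays changed how many of the 47 passed, and none rose under any of the 4 other scalings tried. Under quantile normalization 24 fell, under equal medians 21, and under cyclic loess 23, of which 16, 17 and 16 were among the 17. Of all genes 2.88%, 1.96% and 2.57% fell and 5.05%, 5.02% and 5.29% rose under these 3 scalings. Differences of the 47 below 0 numbered 45, 45 and 44. Scaling to the 12 poly-A spike-in probe sets moved the median difference of all genes from 0.02 to -0.12. It gave 42 of the 47 genes lower and 21.6% of all genes lower, and the median of the 47 was then -0.34. Whether these controls were added to the RNA was not checked here.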

How the data were processed

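RNA from 6 BL2 cultures was read on HG-U133 Plus 2.0 arrays, which favour the 3′ ends of transcripts, after labelling with a 3′ IVT kit, per the labels' protocols. The deposited values are log2 expression per probe set, from 5.45 to 15.0, with array medians of 6.89 to 6.96. How the authors corrected background, normalized and summarised them is not given in the sources used here, and the log2 scale was read from the values' range. The number of arrays limits the precision.

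Of 54675 probe sets, 62 controls were left out. Names came from the platform annotation, and only probe sets naming 1 gene were used (41091, 1801 named several and 11721 none). PRIM2 shares 4 further probe sets with another symbol, which were left out. Fits used limma 3.58.1 (lmFit, eBayes) in R 4.3.3 and the data.table package (version 1.17.8), and figures Python 3.11.15 with matplotlib 3.10.9. The fit without block had 4 residual and 4.07 prior degrees of freedom, and that with batch as block 2 and 12. Batch numbers in the labels pair the arrays. Deviations from group means correlated at 0.477, 0.493 and 0.621 between the arrays of batches 1, 2 and 3. The script was tested on simulated data, with planted differences larger than those of the replication genes that fell. The genes and lists were chosen with earlier results of these data known. Named were LEF1; per group of genes up to 4 that passed by p and the 2 largest that did not; per other list up to 3 that passed. Genes named outside that rule were chosen after their values were seen. Alternatives were other scalings, probe set choices, filters, eBayes settings, weights and arrays left out.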

Additional observations from a re-analysis of the deposited data

How the results depend on the processing

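Without block no replication gene passed under any alternative but the replicate block itself, which gave 17. With batch as block, 42 genes passed after poly-A spike-in scaling, 28 at an adjusted p of 0.1 and 3 without both arrays of batch 2. Leaving out 1 array each gave 3 to 21, since in the blocked fit a lone array drops its whole batch. The other replication genes went from 9 to 31 after spike-in scaling. They numbered 15 at an adjusted p of 0.1, 1 without both arrays of batch 2, and 1 to 9 with 1 array left out. Of all genes, 21.6% fell after spike-in scaling and 0.622% without batch 2. The share of all genes at an adjusted p of 0.1 was not computed. After spike-in scaling, which shifts all genes down, the mean of the 47 moved to -0.33, and those of origin, helicase, polymerase, clamp loader, nucleotide supply and chromatin assembly to -0.26, -0.43, -0.30, -0.30, -0.37 and -0.30. The polymerase mean moved beyond its narrow spread to -0.19 under quantile normalization, -0.18 under equal medians and cyclic loess, -0.17 by the most variable probe set and -0.14 by the mean of all probe sets. The clamp loader mean was -0.22 by the most variable probe set. The causes were not tested. For the 26 named replication genes, 328 of 442 values under alternatives kept direction and side of the threshold. Of the rest, 56 no longer passed, 58 newly passed and 0 reversed. Fits without 1 array repeat the fit without both arrays of its batch, so these values are not independent. The fit with batch as block borrows most of its spread estimate from other probe sets, and 3 batches leave any gene's own spread poorly known. The planned change of pseudocount did not apply to log2 values.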
